A study of Mus musculus with 9 samples.

Results

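The genes described here encode the receptors of the colony-stimulating factors and the ligands of the macrophage receptor, chosen by symbol as a list of 7 mouse genes: Csf1r, Csf1, Il34, Csf2ra, Csf2rb, Csf2rb2 and Csf3r. Of the 7, 6 were analysed among the 15434 genes of the deposited table, and Il34 was not analysed here. All 6 were among the 11766 genes tested, which reached 10 or more normalised reads in 3 or more of 9 libraries. Csf1 met that minimum through 1 testis library and the 3 brain libraries, and Csf3r through the epididymis and brain libraries. Untreated C57BL/6J mice gave testis, epididymis and brain macrophages, whose RNA was sequenced without culture in 3 libraries an organ. The cells of every organ were sorted as live CD45+ CD11b+ F4/80+ cells that lacked Ly6C and CD11c, so the brain libraries hold microglia by their labels. Each organ carries a mouse number of its own in the labels, 1 number for its 3 libraries. They do not say that the 3 came from separate animals, so p-values measure the spread between libraries, which may be technical, and organ and mouse number cannot be told apart. The protocol's wording leaves it unclear whether testis and epididymis suspensions were pooled at any step, and the labels were used as given.

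Macrophages depend on CSF1R, a receptor tyrosine kinase that is activated by either of its ligands, CSF1 (M-CSF) and IL-34. Microglia and many tissue macrophages are lost when this receptor is missing. GM-CSF acts through an alpha chain, encoded by Csf2ra, and a beta chain, encoded by Csf2rb, that IL-3 and IL-5 receptors share, and signals through JAK2 and STAT5. Mice have an additional beta chain, Csf2rb2, that serves IL-3. G-CSF acts through CSF3R, best known on neutrophils.

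Libraries held 2727092 to 4458688 reads assigned to genes. A normalised read, the unit of all values given here, is a read divided by the factor of its library, and 1 read was worth 0.808 to 1.11 normalised reads. The genes of the sort gate Ptprc (CD45), Itgam (CD11b) and Adgre1 (F4/80) had reads in all 9 libraries. Levels of the 10 sort-gate and macrophage genes also differed between organs. Their sum was 9219 to 12517 in testis, 16336 to 18417 in epididymis and 25482 to 25913 in brain libraries, with Itgam, Cx3cr1 and Mertk called lower by limma in testis than in both other organs and in epididymis than in brain. Ptprc and Lyz2 were called higher in testis and in epididymis than in brain, and Adgre1 was called higher in epididymis than in brain. The summed level of 9 microglia genes was 960 to 1559 in testis, 4166 to 5958 in epididymis and 27689.6 to 30406 in brain libraries, with none of the 9 at 0 throughout an organ. On the third principal component, which held 14.2% of the variance, testis replicate 1 (score 99.1) and epididymis replicate 3 (97.2) lay highest. Epididymis replicate 2 lay lowest there (-94.6) and highest on the fourth component (125, with 12.5% of the variance). Summed T and NK cell genes were 763 to 1147 in testis, 65.5 to 162 in epididymis and 57.4 to 154 in brain libraries. Summed monocyte genes were 1615 to 2153 in testis, 52.7 to 386 in epididymis and 137 to 260 in brain libraries (Ccr2 had 1154 to 1548, 14.5 to 68.5 and 77.3 to 99.2). Summed Leydig cell genes were 1377 to 3715 in testis, 29.1 to 201 in epididymis and 75.8 to 105 in brain libraries. Summed dendritic cell genes were 448 to 642 in testis, 495 to 515 in epididymis and 112 to 202 in brain libraries. Summed immediate early and stress genes were 152974 to 172777 in testis, 51479 to 53783 in epididymis and 65393 to 109079 in brain libraries. The part of any of these lists in the differences between organs was not tested.

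Between organs, Csf1r, Csf2rb and Csf3r were lower in testis than in epididymis macrophages. Csf1r and Csf3r were lower and Csf2ra higher in testis macrophages than in brain microglia. Csf2ra was higher and Csf1 lower in epididymis macrophages than in microglia. With limma and Benjamini-Hochberg adjustment over all tested genes at 0.05, 3 of 6 members were called between testis and epididymis, where 4.39% of all tested genes were called. Between testis and brain 3 of 6 were called, against 11.7% of all genes, and between epididymis and brain 2 of 6, against 4.79%. Over the 3 organs together, limma's F test called 5 of 6 members, all but Csf2rb2, where 11.4% of all genes were called. With 1 library left out at a time, 0 to 3 members were called between testis and epididymis, 2 to 4 between testis and brain and 0 to 3 between epididymis and brain, and the libraries behind each lost call are named with the gene. Libraries of the compared organs did not overlap for 3 of 6 members between testis and epididymis (19.8% of all tested genes), 4 of 6 between testis and brain (30.8%) and 5 of 6 between epididymis and brain (22%). The median log2 difference over the 6 members was -0.87 for testis minus epididymis, where the median over all tested genes was 0.10. It was -1.34 against -0.07 for testis minus brain, and -0.39 against -0.13 for epididymis minus brain. Each organ enters 2 of these 3 comparisons, which therefore share libraries. In bulk RNA samples such as these, fewer cells of a type and less RNA per cell cannot be told apart.

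**Figure D1:**
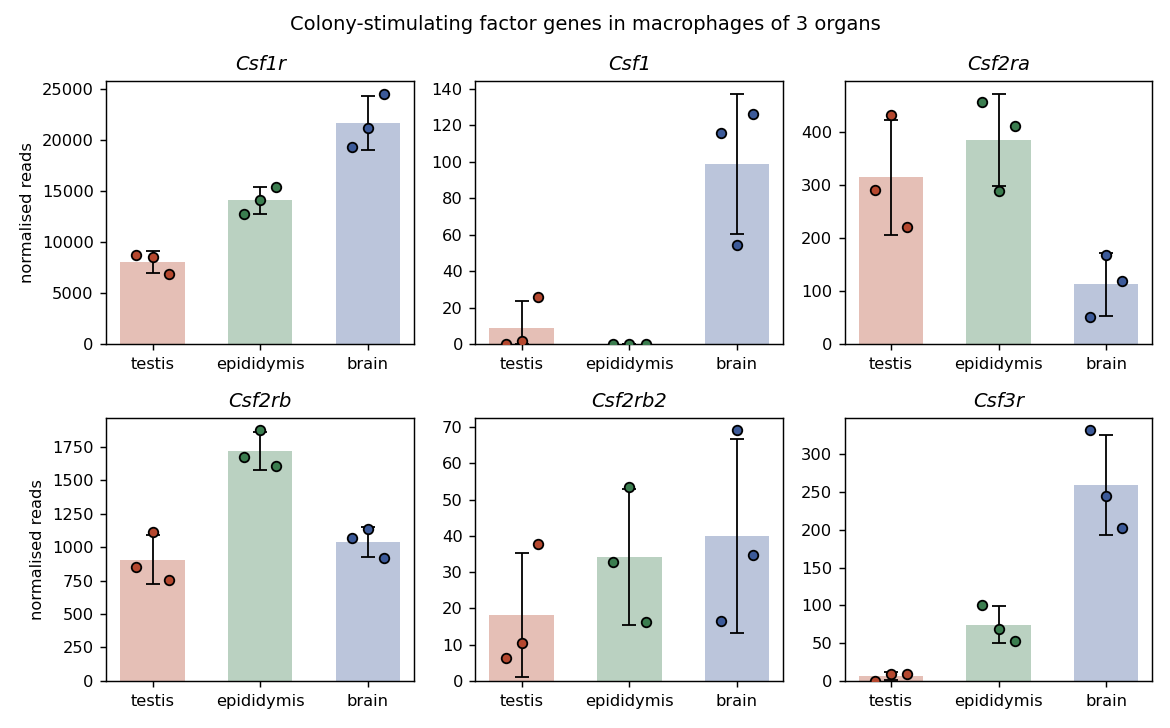
Normalised reads of the 6 members (vertical axes, one panel per gene) in testis, epididymis and brain (horizontal axes), with points for libraries and bars and error bars for the mean and SD (n = 3). Csf1r and Csf3r step up without overlap through the 3 organs, Csf1 has no read in epididymis, and Csf2ra is lowest in brain.

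Csf1r encodes the receptor for CSF1 and IL-34 and lies on chromosome 18 at 61100598 to 61132149, plus strand, in GRCm38. Testis macrophages had 8726, 8564 and 6845 normalised reads of Csf1r. Epididymis macrophages had 12733, 14088 and 15375, and brain microglia 19251, 21179.6 and 24507. The 3 organs did not overlap, with testis lowest and brain highest. Means were 8045 ± 1042, 14065 ± 1321 and 21646 ± 2659 in testis, epididymis and brain (SD, n = 3 each). As a share of all assigned reads, Csf1r took 0.192 to 0.249% in testis, 0.402 to 0.481% in epididymis and 0.658 to 0.784% in brain libraries. By read number it ranked 40 to 60 among genes in testis, 11 to 13 in epididymis and 3 to 4 in brain.

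Testis minus epididymis was -0.81 on the log2 scale for Csf1r (SE 0.17, limma adjusted p = 0.014). This call was lost without testis replicate 3 (limma adjusted p = 0.058), epididymis replicate 2 (0.063) or epididymis replicate 3 (0.071), without a variance trend (0.30) or with only the 6 libraries of the 2 organs (0.055), with a range of 0.0085 to 0.071 over all 9 libraries left out. Testis minus brain was -1.43 (SE 0.17, limma adjusted p = 4.2e-05), which was called under all 9 leave-outs and all 9 other settings, with 0.039 as the highest adjusted p. Epididymis minus brain was -0.62 (SE 0.17, limma adjusted p = 0.053) and was not called, with a 95% interval of -0.99 to -0.25. It was called in 6 of 9 other settings, which were a pseudocount of 4 (adjusted p = 0.041), no filter (0.0083), equal totals (0.027), quantile normalization (0.022), edgeR (0.041) and DESeq2 (0.0011), with 0.45 as the highest over the 9, and in 1 of 9 leave-outs, without testis replicate 3 (0.0498). The summed sort-gate and macrophage genes given above stepped through the organs in the same order as Csf1r, but their genes did not all do so. Their median log2 difference was -1.12 for testis minus epididymis, 0.22 for testis minus brain and 0.73 for epididymis minus brain. In the last, 3 were called higher and 3 lower. The part of these genes in the Csf1r levels was not tested. Exons of Csf1r share 873 bases, or 15.1% of its exon length, with Hmgxb3 on the opposite strand, and the library kit does not mark strand. Hmgxb3 had 0 to 84.0 normalised reads in testis, 4.31 to 56.4 in epididymis and 145 to 228 in brain libraries.

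Csf1 encodes the ligand CSF1, and its values came from few reads outside brain. Testis macrophages had 0, 1.62 and 25.6 normalised reads, made of 0, 2 and 30 reads. All 3 epididymis libraries were at 0. Brain microglia had 116, 54.6 and 126 normalised reads, made of 127, 49 and 142 reads. Brain lay above both other organs without overlap, while testis replicates 1 and 2 were at or near 0 like epididymis. Against a floor of 3 reads per library, Csf1 was at least 33.8-fold lower in epididymis than in brain (limma log2 difference -6.55, SE 1.53, adjusted p = 0.021). That call was lost without any 1 of the 3 epididymis libraries (adjusted p of 0.062, 0.056 and 0.057 for replicates 1, 2 and 3) or any 1 of the 3 brain libraries (0.078, 0.051 and 0.067). Its limma adjusted p ranged from 0.015 to 0.078 over leave-outs and it was called under all 9 other settings. Testis minus brain was -4.51 (SE 1.53, limma adjusted p = 0.073), which was not called. Without testis replicate 3 the adjusted p was 0.030, and it was 0.036 with a pseudocount of 4, 0.049 without a variance trend and 0.048 with quantile normalization. Testis minus epididymis was 2.04 (SE 1.53, limma adjusted p = 0.54), with a 95% interval of -1.23 to 5.31.

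The Csf1 promoter window is shown because Csf1 held most reads in brain and a match to a nuclear factor kappa B motif sits in it. It is the 300 bases from 250 before to 50 after the transcription start (RefSeq, GRCm38.p6, chr3:107760420-107760719, minus strand). Capitals mark matches, on either strand, to GGGA followed by 4 bases of any kind and CC, and the letters read 5′ to 3′.

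Csf1 promoter window: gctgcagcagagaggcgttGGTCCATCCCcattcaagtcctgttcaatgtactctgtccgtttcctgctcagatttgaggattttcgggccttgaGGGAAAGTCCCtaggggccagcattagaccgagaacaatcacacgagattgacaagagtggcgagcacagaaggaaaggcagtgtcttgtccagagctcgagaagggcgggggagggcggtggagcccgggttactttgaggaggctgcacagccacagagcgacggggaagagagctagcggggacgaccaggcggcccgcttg

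Matches to this motif start at positions -231, -155 and -154 from the start, and -155 and -154 overlap. The motif is in 20.7% of all 32851 promoter windows of the table, so such a match is common and is a description, not a site of binding. The interferon response element, which is GAAA, any 2 bases and GAAA (3.44% of windows), the C/EBP motif TTNCGNAA (2.47%), the STAT motif TTCNNNGAA (8.30%) and the PU.1 motif GAGGAA (28.3%) had no match in the Csf1 window.

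The alpha chain of the GM-CSF receptor, Csf2ra (chromosome 19, 61223957 to 61228429, minus strand), had 289.9, 432 and 221 normalised reads in testis macrophages. Epididymis macrophages had 455, 288 and 412, and brain microglia 51.0, 168 and 118. Testis and epididymis overlapped, and both lay above brain without overlap. Testis minus brain was 1.58 (SE 0.45, limma adjusted p = 0.034), with means of 314 ± 108 and 113 ± 58.9 (SD, n = 3 each). This call was lost without testis replicate 1 (adjusted p = 0.077), testis replicate 2 (0.15), brain replicate 1 (0.16) or brain replicate 3 (0.060), over a range of 0.021 to 0.16. It was also lost in 4 of 9 other settings, under edgeR (0.058), with equal totals (0.063), with only the 6 libraries of the 2 organs (0.068) and without a variance trend (0.14). Summed dendritic cell genes, given above, were likewise lowest in brain, and their part in the Csf2ra levels was not tested. Epididymis minus brain was 1.90 (SE 0.45, limma adjusted p = 0.024), with 385 ± 86.9 in epididymis (SD, n = 3). It was lost without epididymis replicate 1 (0.096), epididymis replicate 3 (0.079) or brain replicate 1 (0.11), over a range of 0.019 to 0.11, and without a variance trend (0.14) or with only 6 libraries (0.076). Testis minus epididymis was -0.32 (limma adjusted p = 0.77), with a 95% interval of -1.29 to 0.64.

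The Csf2ra promoter window (RefSeq, GRCm38.p6, chr19:61228369-61228668, minus strand, 250 before to 50 after the start) is shown because 2 copies of the PU.1 motif GAGGAA, which the macrophage regulator PU.1 is known to bind, stand beside its start. Capitals mark those copies.

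Csf2ra promoter window: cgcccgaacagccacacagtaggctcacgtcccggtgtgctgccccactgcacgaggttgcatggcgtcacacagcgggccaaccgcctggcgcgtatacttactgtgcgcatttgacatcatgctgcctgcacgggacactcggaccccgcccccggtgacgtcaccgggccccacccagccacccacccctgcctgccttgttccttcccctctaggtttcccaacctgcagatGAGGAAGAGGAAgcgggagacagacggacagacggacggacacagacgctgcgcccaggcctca

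The copies start at -14 and -8. The same letters are in 28.3% of all windows, and none of the other 4 motifs matched here.

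The shared beta chain Csf2rb (chromosome 15, 78325752 to 78353847, plus strand) followed another order, with epididymis highest. Testis macrophages had 850.0, 1110.0 and 757 normalised reads. Epididymis macrophages had 1675, 1872 and 1602, and brain microglia 1066, 1137 and 918. Epididymis lay above both other organs without overlap, and testis and brain overlapped. Testis minus epididymis was -0.94 (SE 0.21, limma adjusted p = 0.020). It was lost without testis replicate 1 (adjusted p = 0.061), testis replicate 3 (0.073), epididymis replicate 1 (0.053) or epididymis replicate 2 (0.083), over a range of 0.021 to 0.083, and without a variance trend (0.26) or with only 6 libraries (0.058). Epididymis minus brain was 0.72 (SE 0.21, limma adjusted p = 0.068) and was not called, with a 95% interval of 0.27 to 1.18, while DESeq2 called it (0.021). Testis minus brain was -0.21 (SE 0.21, limma adjusted p = 0.61), with an interval of -0.67 to 0.24.

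The second beta chain, Csf2rb2 (chromosome 15, 78282507 to 78305721, minus strand), was far lower in all organs. It had 6.21, 10.5 and 37.6 normalised reads in testis, 32.7, 53.5 and 16.2 in epididymis and 16.4, 69.1 and 34.7 in brain libraries. The 3 organs overlapped. Testis minus epididymis was -1.10 (SE 1.25, limma adjusted p = 0.70) with a 95% interval of -3.76 to 1.56. Per kilobase of exon, mean levels were 3.82, 7.20 and 8.45 for Csf2rb2 and 124, 236 and 143 for Csf2rb in testis, epididymis and brain.

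Csf2rb and Csf2rb2 are near-identical, which leaves their split uncertain because the counting rule is not given in the sources used here. Their coding sequences, of 2688 and 2634 bases (GENCODE M21, GRCm38), were identical at 95.2% of 2628 aligned positions, and 26.6% of the 50-base words of Csf2rb2 also occur in Csf2rb. The 120 coding bases with fewest differences were the same in both genes, at coding positions 2083 to 2202 of each (chr15:78348577-78348696 plus for Csf2rb, chr15:78284752-78284871 minus for Csf2rb2), and a read wholly within them matches both genes.

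Csf2rb, coding bases alike: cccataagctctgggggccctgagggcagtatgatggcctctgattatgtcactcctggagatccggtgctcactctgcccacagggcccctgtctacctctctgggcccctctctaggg
Csf2rb2, coding bases alike: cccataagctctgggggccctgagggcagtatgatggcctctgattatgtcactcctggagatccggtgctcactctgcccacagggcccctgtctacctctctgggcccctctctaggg

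The 120 coding bases with most differences had 22, at coding positions 309 to 428 of Csf2rb and 312 to 431 of Csf2rb2, each spanning an intron. They are shown because a read there can tell the genes apart, and capitals mark the bases that differ.

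Csf2rb, coding bases apart: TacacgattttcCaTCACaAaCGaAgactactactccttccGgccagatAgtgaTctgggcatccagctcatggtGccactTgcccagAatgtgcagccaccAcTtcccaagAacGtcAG
Csf2rb2, coding bases apart: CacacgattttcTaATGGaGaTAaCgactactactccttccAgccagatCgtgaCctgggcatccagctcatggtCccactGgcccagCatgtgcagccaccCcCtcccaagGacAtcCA

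Csf2ra has 2871 bases of exon and Csf2rb 7277. Per kilobase of exon, mean levels in testis, epididymis and brain were 109, 134 and 39.2 for Csf2ra and 124, 236 and 143 for Csf2rb. As a share of Csf2rb, without scaling to exon length, Csf2ra was 34.1, 38.9 and 29.2% in testis libraries. It was 27.2, 15.4 and 25.7% in epididymis and 4.79, 14.8 and 12.9% in brain libraries. Testis did not overlap epididymis or brain, and epididymis did not overlap brain. This ratio was chosen after its values were seen, and each exact permutation test of 3 against 3 libraries gave p = 0.1, two-sided, the smallest it allows. Csf2rb2 was 0.731 to 4.97% of Csf2rb in testis, 1.01 to 2.86% in epididymis and 1.54 to 6.08% in brain, which overlapped (exact permutation p of 0.8, 0.3 and 0.3 for testis against epididymis, testis against brain and epididymis against brain).

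Csf3r encodes the G-CSF receptor (chromosome 4, 126024550 to 126044440, plus strand). Testis macrophages had 0, 8.89 and 9.40 normalised reads, made of 0, 11 and 11 reads. Epididymis macrophages had 101, 68.5 and 52.8, and brain microglia 332, 245 and 202. The organs did not overlap, with testis lowest and brain highest. Testis minus brain was -5.77 (SE 1.04, limma adjusted p = 0.0016) and was called under all 9 leave-outs and all 9 other settings. Testis minus epididymis was -3.95 (SE 1.04, limma adjusted p = 0.044). It was lost without epididymis replicate 1 (adjusted p = 0.12), 2 (0.10) or 3 (0.079) and without brain replicate 1 (0.11), 2 (0.094) or 3 (0.095), over a range of 0.039 to 0.12. It was also lost with a pseudocount of 0.25 (0.081), without a variance trend (0.085) and with only 6 libraries (0.28). Epididymis minus brain was -1.82 (SE 1.04, limma adjusted p = 0.43), which was not called. Of all tested genes, 1.22% (144) had testis below epididymis below brain without overlap at either step, as did Csf1r and Csf3r among the 6 members.

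Neutrophil genes were looked at beside Csf3r. S100a8 had 0 normalised reads in all testis libraries, 0, 9.38 and 0 in epididymis and 104, 62.4 and 89.8 in brain libraries. S100a9 had 0 in all testis libraries, 4.55, 0 and 0 in epididymis and 209, 22.3 and 80.9 in brain. The granule genes Camp, Ltf and Ngp and the gene Retnlg were at 0 in all testis and epididymis libraries. In brain Camp had 44.6, 0 and 13.3, Ltf 2.73, 32.3 and 12.4, Ngp 12.8, 0 and 12.4 and Retnlg 7.29, 43.5 and 0. The neutrophil surface gene Ly6g was at 0 in all testis and brain libraries and had 45.5, 0 and 0 in epididymis. Cxcr2, a chemokine receptor of neutrophils, had 256, 144 and 209 in testis, 254, 113 and 144 in epididymis and 99.3, 72.5 and 109 in brain. The summed level of 10 neutrophil genes was 225 to 365 in testis, 122 to 324 in epididymis and 233 to 497 in brain libraries. S100a8, S100a9, Camp, Ltf, Ngp and Retnlg were highest in brain and at or near 0 in testis and epididymis. Other genes of the list followed other orders. Cxcr2 was lowest in brain, and Ly6g had reads in epididymis replicate 1 alone. Mmp9 had reads in testis and brain and none in epididymis. The part of neutrophil genes in the Csf3r levels of any organ was not tested.

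The Csf3r promoter window (RefSeq, GRCm38.p6, chr4:126024409-126024708, plus strand, 250 before to 50 after the start) is shown with matches in capitals. They are GAGGAA (PU.1) at -86 and the nuclear factor kappa B motif, read on the other strand, at -129.

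Csf3r promoter window: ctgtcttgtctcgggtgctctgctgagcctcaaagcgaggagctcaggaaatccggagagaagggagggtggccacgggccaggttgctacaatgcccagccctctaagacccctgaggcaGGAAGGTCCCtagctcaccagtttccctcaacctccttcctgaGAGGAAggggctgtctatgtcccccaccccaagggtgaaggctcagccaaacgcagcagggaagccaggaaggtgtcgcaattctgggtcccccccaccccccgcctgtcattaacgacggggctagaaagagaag

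Promoter windows were examined for 4 of the 7 members, Csf1, Csf2ra, Csf2rb2 and Csf3r, and Csf1r was left out of this search.

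**Figure D2:**
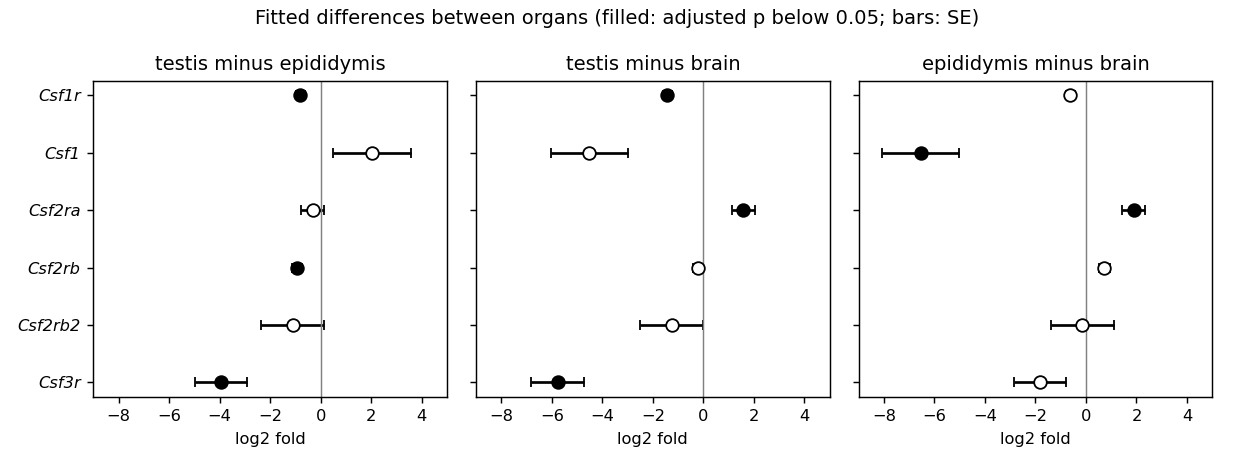
Log2 differences (horizontal axis, limma, bars for SE) of the 6 members (rows) for testis minus epididymis, testis minus brain and epididymis minus brain. Filled points have an adjusted p below 0.05. Csf1r and Csf3r lie below 0 in the comparisons of testis with brain and Csf2ra above 0, while Csf2rb2 is not called in any comparison.

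Genes listed for CSF1R signalling were lower in testis where they were called. The list was not split into genes that pass the signal on and genes that restrain it. Of 21 tested with limma, 0 rose and 2 fell in testis against epididymis, Lyn and Vav1, with 19 not passing, where 2.49% of all tested genes were higher and 1.9% lower. Against brain 0 rose and 5 fell, Inpp5d, Lyn, Pik3r1, Src and Vav1, where 6.82% of all genes were higher and 4.83% lower. In epididymis against brain 2 rose (Gab2 and Ptpn6) and 1 fell (Pik3r1), where 2.99% were higher and 1.8% lower. For the 2 counts of 0, 1 gene each was higher at an unadjusted p below 0.05, and edgeR and DESeq2 called 0. The 2 lower calls against epididymis became 1 without any of the 3 testis libraries or without epididymis replicate 2 or 3. The 5 lower calls against brain became 2 without testis replicate 3 or brain replicate 1 or 2, and 3 without testis replicate 2, epididymis replicate 1 or brain replicate 3. The 2 higher calls of epididymis against brain became 1 without testis replicate 1 and 0 without any other library but brain replicate 3, and the lower call was lost without epididymis replicate 1 or 2 or brain replicate 1 or 2. Without a variance trend, the lower calls in testis were 0 against epididymis and 2 against brain, and epididymis against brain had 0 in either direction. With only the 6 libraries of the 2 organs, the lower calls in testis were 1 and 3. The list's median log2 difference was -0.42 for testis minus epididymis, -0.09 for testis minus brain and 0.28 for epididymis minus brain, beside 0.10, -0.07 and -0.13 over all tested genes. Pik3r1, the regulatory subunit of phosphoinositide 3-kinase, had 830.3, 1003 and 1040.4 normalised reads in testis and 2660.5, 2729.9 and 2169 in brain (log2 -1.39, limma adjusted p = 0.00020), and held under all 9 leave-outs. Vav1, a guanine nucleotide exchange factor, had 547, 467 and 516 in testis and 1169, 1033 and 1219 in epididymis (log2 -1.16, limma adjusted p = 0.0057). Its call held under all 9 leave-outs but was lost without a variance trend (0.14). The Src-family kinase Lyn was -0.87 in testis minus epididymis (limma adjusted p = 0.021), lost without testis replicate 1 (0.053), 2 (0.054) or 3 (0.071) or epididymis replicate 2 (0.071) or 3 (0.091). The Lyn call was also lost without a variance trend (0.29) and with only 6 libraries (0.075).

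Of the genes listed for the JAK2 and STAT5 arm, those called in testis were higher there and were target genes. Jak2, Stat5a, Stat5b and Stat3 were called in no comparison. Of 11 tested, 3 rose in testis against epididymis (Cish, Mcl1 and Pim1), where 2.49% of all tested genes were higher, none fell and 8 did not pass. The same 3 rose against brain, where 6.82% of all tested genes were higher. No member of the list was lower at an unadjusted p below 0.05 or by edgeR or DESeq2. Over the 9 leave-outs, a check of this count added after seeing the data, 2 to 3 were called in each comparison, and 0 against epididymis without a variance trend. In epididymis against brain, 1 of the 11 rose, Pim1 (log2 2.13, limma adjusted p = 0.0029), where 2.99% of all tested genes were higher. That call was lost without a variance trend (0.089). The list's median log2 difference was 1.01 for testis minus epididymis, 0.46 for testis minus brain and -0.30 for epididymis minus brain, where the medians of all tested genes were 0.10, -0.07 and -0.13. Pim1, a kinase induced by STAT5, had 2811, 1965 and 3826 normalised reads in testis, 945, 649 and 578 in epididymis and 87.4, 191 and 252 in brain libraries. Its 3 organs did not overlap, with testis highest. The log2 difference was 1.96 for testis minus epididymis (SE 0.36, limma adjusted p = 0.0054) and 4.09 for testis minus brain (SE 0.36), both called under all 9 leave-outs. Without a variance trend the Pim1 call against epididymis was lost (0.13). Mcl1, a survival gene of the Bcl2 family, had 5144, 5173 and 6950.5 normalised reads in testis, 2675, 2383 and 2282 in epididymis and 2124, 2351 and 2764 in brain. Testis lay above both (log2 1.22 and 1.25, limma adjusted p = 0.0014 and 0.00031). Both calls held under all 9 leave-outs, and both were lost without a variance trend (0.14 and 0.066). Cish, a feedback inhibitor induced by STAT5, had 266, 431 and 192 normalised reads in testis, 17.3, 0.938 and 2.16 in epididymis and 9.11, 1.11 and 33.8 in brain libraries. It was called in both comparisons (log2 5.87 and 4.96, limma adjusted p = 0.028 and 0.033). The first was lost without testis replicate 1 (0.088), 2 (0.13) or 3 (0.078) or epididymis replicate 2 (0.074) or 3 (0.065), the second without testis replicate 1 (0.090), 2 (0.13) or 3 (0.081) or brain replicate 1 (0.090) or 2 (0.13). Both were lost with a pseudocount of 0.25 (0.055 and 0.063), and the first also without a variance trend (0.060). The summed immediate early and stress, T and NK cell, monocyte and Leydig cell genes, given above, were also highest in testis, and Il2rb, a T and NK cell gene, had 343, 263 and 274 normalised reads there.

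**Figure D3:**
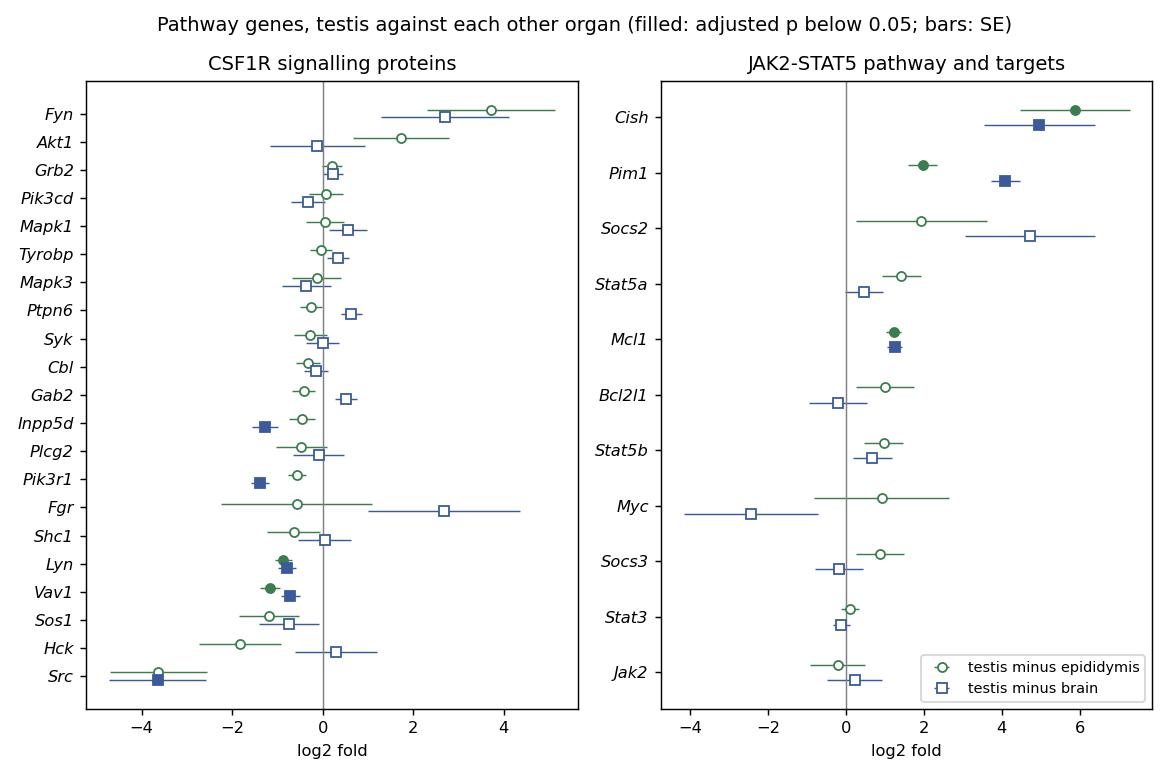
Log2 differences (horizontal axes, limma, bars for SE) of the tested genes of the CSF1R signalling list and the JAK2 and STAT5 list (rows). Comparisons are testis minus epididymis and testis minus brain, and filled points pass the limma threshold. Genes of the JAK2 and STAT5 list that pass, the targets Cish, Pim1 and Mcl1, lie above 0 in testis against both other organs. CSF1R signalling genes that pass lie below 0.

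Among 5 other class III receptor kinases and ligands tested, 1, Kit, was called higher in testis against both organs. Of all tested genes, 2.49% were higher in testis than in epididymis and 6.82% than in brain. Testis libraries had 73.5, 67.9 and 81.2 normalised reads of Kit, epididymis 0 in all 3 and brain 0, 0 and 9.78. Kit met the minimum for testing through the 3 testis libraries alone, so the test was run because it was high there. Against the floor of 3 reads per library, Kit was at least 25.4-fold higher in testis than in epididymis (limma adjusted p = 0.022), lost without testis replicate 2 (0.052) or 3 (0.050) or epididymis replicate 1 (0.058), 2 (0.063) or 3 (0.062). Against brain the log2 difference was 5.09 (limma adjusted p = 0.031), lost without testis replicate 1 (0.052), 2 (0.058) or 3 (0.062) or brain replicate 1 (0.15) or 2 (0.14), and edgeR called Kit in neither comparison (0.095 against epididymis and 0.26 against brain). The call against brain was also lost with DESeq2 (0.094) and with no filter (0.065), and that against epididymis with only 6 libraries (0.058). Kit is also a mast cell gene. Of 11 listed mast cell, basophil and eosinophil genes, 3 were analysed here, which were Kit, Prg2 and Il5ra. Prg2 was at 0 in testis, and Il5ra was at 0 in 2 of 3 testis libraries and had reads in testis replicate 3. The part of such cells in the Kit level was not tested. Of 5 factors that bind the Csf1r locus, 2 rose and 1 fell in testis against brain, where 6.82% of all tested genes were higher and 4.83% lower. Runx1 rose in testis against brain (log2 1.02, limma adjusted p = 0.0099), which was called under all 9 leave-outs with a highest adjusted p of 0.0499. Without a variance trend the Runx1 call was lost (0.15). Cebpa fell (log2 -1.68, limma adjusted p = 0.0085), lost without brain replicate 1 (0.054) or without a variance trend (0.051). Ets2 rose (log2 2.87, limma adjusted p = 0.040), a call lost without any testis library, without epididymis replicate 1 or 2 or without brain replicate 1 or 3 (0.055 to 0.14), and with edgeR (0.12) and DESeq2 (0.068). It was called in 3 of 9 other settings. Spi1 (PU.1) was at 1.05 (limma adjusted p = 0.053) and was not called. In the other comparisons limma called 0 of the 5, against 4.39% of all tested genes for testis minus epididymis and 4.79% for epididymis minus brain. At an unadjusted p below 0.05 these were 1 for testis minus epididymis and 3 for epididymis minus brain, and DESeq2 called 1 for epididymis minus brain and edgeR 0. Sdc1, a proteoglycan that binds IL-34, had 12.4, 103 and 95.8 normalised reads in testis, 0, 0 and 19.4 in epididymis and 0 in all brain libraries. It was at least 24.2-fold higher in testis than in brain (limma adjusted p = 0.028), lost without testis replicate 2 (0.083) or 3 (0.079) or brain replicate 1 (0.098), 2 (0.091) or 3 (0.086). That call was also lost with edgeR (0.069) and with no filter (0.051). Sdc1 met the minimum for testing through its 3 testis libraries and 1 epididymis library. Of 3 shedding protease genes, 1 fell in testis against epididymis, where 1.9% of all tested genes were lower. It was Adam17, which cleaves CSF1R from the cell surface (log2 -0.84, limma adjusted p = 0.025). The call was lost without testis replicate 1 (0.082), 2 (0.063) or 3 (0.061) or epididymis replicate 2 (0.11) or 3 (0.096). It was also lost without a variance trend (0.30) and with only 6 libraries (0.079). Of 3 tested genes that depend on GM-CSF in lung macrophages, 1, Itgax (CD11c), was called higher in epididymis than in brain, where 2.99% of all tested genes were higher. Itgax had 265, 209 and 294 normalised reads in epididymis and 0 in all brain libraries, although the sort excluded CD11c. It was at least 88.0-fold higher in epididymis than brain (limma adjusted p = 0.0066), a call held under all 9 leave-outs. The 3 epididymis libraries alone were enough for Itgax to meet the minimum for testing, so the test was run because it was high there. Itgax was also called lower in testis than in epididymis, where 1.9% of all tested genes were lower. That call held in 4 of 9 leave-outs and was lost with edgeR (0.077) and DESeq2 (0.29). It was also lost with a pseudocount of 0.25 (0.058) and with only the 6 libraries of the 2 organs (0.077).

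**Figure D4:**
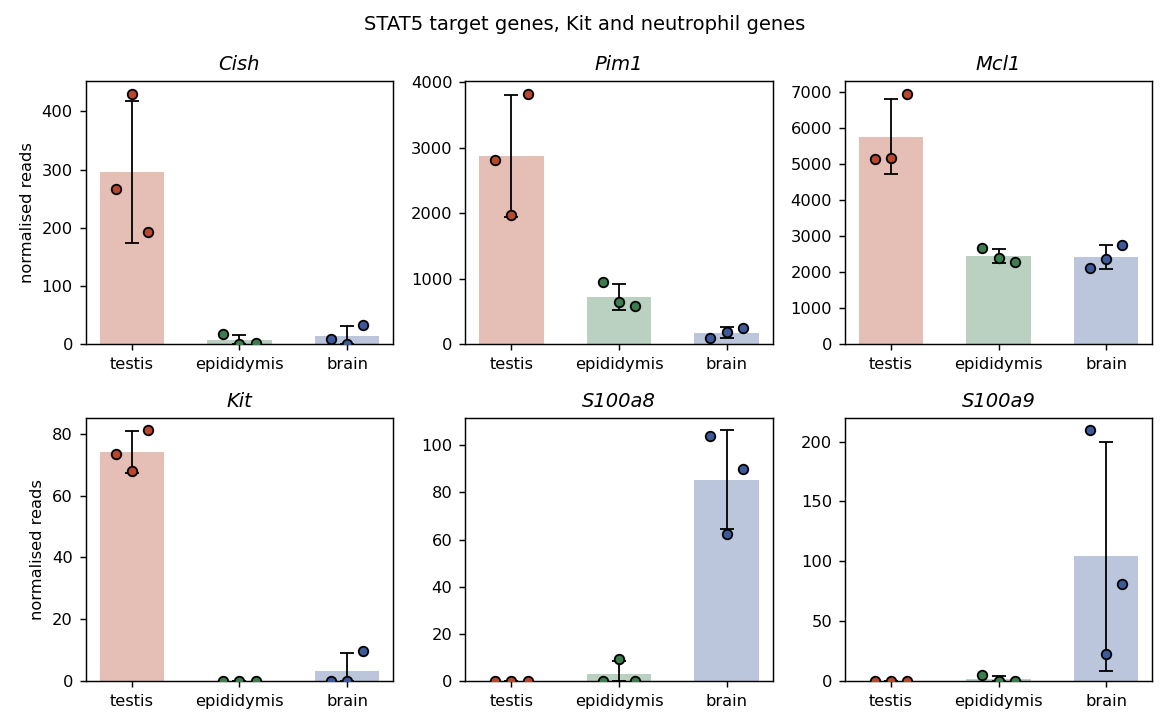
Normalised reads (vertical axes) of Cish, Pim1, Mcl1, Kit, S100a8 and S100a9 in testis, epididymis and brain, with points for libraries and bars and error bars for the mean and SD (n = 3). Cish, Pim1, Mcl1 and Kit are highest in testis, and S100a8 and S100a9 in brain.

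The genes whose levels most resembled each member were sought among 5664 genes whose highest organ mean was at least the median of 110 normalised reads, by Pearson correlation of log2 values over the 9 libraries, which share their depth and organ. For Csf1r these were Tmem173 (r = 0.98), Ivns1abp (0.98) and Itgam (0.97), for Csf1 Adgrg1 (0.99), Tmem135 (0.98) and Sgce (0.97), and for Csf3r Nrip1 (0.99), Scoc (0.98) and Med12l (0.98). Csf2ra was nearest to Irf7 (0.97), Ifit2 (0.96) and Sdf4 (0.95), Csf2rb to Sat1 and Pik3ap1 (0.95 each), and Csf2rb2 to Psg16 (0.94), Arfgef1 (0.92) and Ppil2 (0.91). With organ means removed, r with Csf1r was 0.72 for Tmem173, 0.57 for Ivns1abp and 0.46 for Itgam. With Csf2rb it was 0.72 for Sat1 and 0.61 for Pik3ap1. For the other genes named here it was 0.86 to 0.97. Adgrg1, an adhesion receptor, had 0, 0 and 55.6 normalised reads in testis, 0 in all epididymis libraries and 245, 135 and 320.0 in brain, so that testis replicate 3 alone among testis libraries held it, as it held most of the Csf1 reads. Irf7, an interferon regulatory factor, had 72.5, 403 and 204 normalised reads in testis, 565, 258 and 624 in epididymis and 0, 35.7 and 23.1 in brain libraries.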

How the data were processed

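Expression was measured in 9 libraries. Per the submitters' processing notes, CASAVA 1.8, Bowtie2 2.2.1, Partek 6.6, DESeq2 and the mm10 genome were used. The part each tool played, the counting of reads and the gene models were not given in the sources used here. The deposited signal values are reads scaled by a library factor: every value (100%) was a whole multiple of the worth of 1 read, within 1e-06 reads, so whole reads were recovered. The 11766 of 15434 genes with 10 or more in 3 or more libraries were tested on log2(value + 1) with limma 3.58.1 in R 4.3.3, using a variance trend, all 9 libraries in 1 fit and no covariate, with Benjamini-Hochberg adjustment at 0.05. Differences are on the log2(value + 1) scale, which understates those of low genes. The fit was tested on simulated data. Alternatives were pseudocounts of 4 and 0.25, no filter, no trend, the 6 libraries of 2 organs, equal totals, quantile normalization, edgeR 4.0.16 and DESeq2 1.42.0 on the recovered reads, and each library left out. Each list's counts were also refitted under these settings, a choice made after seeing the data. The count tests were alternatives because the table holds normalised values, and on the recovered reads edgeR called 366, 1056 and 458 genes for testis minus epididymis, testis minus brain and epididymis minus brain, where limma called 516, 1371 and 564. Named pathway genes are up to 3 per list and comparison with the largest change among those called. Members and lists were chosen with earlier results of these data known. Coordinates are from GENCODE M21. Read numbers and the floor of 3 reads per library cover counting error only. The planned ratio of Il34 to Csf1 was not run.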

Additional observations from a re-analysis of the deposited data

How the results depend on the processing

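Of the values for single genes, 583 kept their side of the threshold and direction, 12 became called, 158 lost their call and 3 turned direction, which were Csf2rb2 for epididymis minus brain at 0.0800 with quantile normalization and between -0.66 and 0.34 with a library left out, above 0 without epididymis replicate 3 (0.29) or brain replicate 2 (0.34), against -0.15. Members called for testis minus epididymis were 0 without a variance trend and 0 with only the 6 libraries of the 2 organs, against 3. For epididymis minus brain they were 1 under each of those settings and 4 under DESeq2, against 2, and for the F test 2 without a trend, against 5. Leaving out 1 library each time gave 0 to 3 members for testis minus epididymis, 2 to 4 for testis minus brain, 0 to 3 for epididymis minus brain and 3 to 5 for the F test. Genes called were 192, 250 and 789 for testis minus epididymis without a trend, with 6 libraries and with DESeq2, against 516, and 278 to 442 with a library left out. They were 837 without a trend for testis minus brain, against 1371, with 827 to 1457. For epididymis minus brain they were 306 without a trend and 921 with DESeq2, against 564, with 320 to 597. For the F test they were 737 without a trend, against 1337, with 859 to 1302. The cause was not tested. With equal totals, the split of higher and lower calls was 226 and 307 for testis minus epididymis, against 293 and 223, and 654 and 771 for testis minus brain, against 803 and 568. The median of all genes was -0.05 and -0.29 there, against 0.10 and -0.07. Apart from Csf2rb2, every member kept its direction in all 3 comparisons under equal totals and quantile normalization. No paired analysis was possible because the labels give no number linking libraries of different organs. The Csf2ra call for testis minus brain was lost with equal totals. In testis, values of Csf1, Csf2rb2 and Csf3r rest on few reads, and depth was not separated from the spread between libraries.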
